A study of Homo sapiens with 10 samples.

Results

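The genes of the protein synthesis machinery were examined in 3 subsets sorted from MDA-MB-231, a line of human breast cancer cells that was derived from a metastatic site. The cells carried pEGFP1-Oct3/4, in which the promoter of Oct4A, a stem cell transcription factor, drives GFP, and had been selected with neomycin, so that all subsets share the reporter and the selection. They were sorted by GFP intensity into Oct4hi BCCs (4 arrays), Oct4med BCCs (2 arrays) and Oct4low BCCs (4 arrays). Per the labels, Oct4hi and Oct4low BCCs are the 5% of cells with the most and the least GFP, and Oct4med BCCs lie between them. The results text of the study describes a wider gate for Oct4low BCCs than the labels do, so the exact gates are not certain. GFP reports the activity of a transferred promoter and not the Oct4 protein, and the whole series comes from 1 cell line. The labels call the arrays of a subset biological replicates.

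Members were the probe sets whose single gene symbol begins with RPL, RPS, MRPL, MRPS, EIF or EEF, without the kinases named RPS6K and without pseudogenes. Each gene was represented by its brightest probe set over the 10 arrays. This gave 78 genes of the 12083 that the deposited values name, from 118 probe sets. Among them are 21 proteins of the cytosolic ribosome, 24 of the mitochondrial ribosome, 19 initiation factors, 5 elongation factors, 5 regulators, 1 paralog (RPL3L) and 3 non-coding transcripts that carry the name of a neighbouring gene. In all, 65 of the 78 genes were at or above the array median on at least 2 arrays and were tested. The other 13 read between 2.87 and 5.29 and were not tested.

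The cytosolic ribosome reads messenger RNA with a small 40S and a large 60S subunit. Its mRNAs mostly begin with a cytidine and a run of pyrimidines, the 5′ terminal oligopyrimidine (TOP) tract, through which mTOR signalling controls their translation. Initiation factors bring the 40S subunit and the initiator tRNA to the capped mRNA, elongation factors carry the ribosome along it, and a separate ribosome inside mitochondria translates the few proteins that mitochondrial DNA encodes. A dividing tumor cell spends much of its energy on this machinery.

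To show the feature that sets the cytosolic genes apart from the mitochondrial ones, the 30 bases around the annotated start are given for members whose values are described further on. The sequences are from RefSeq (GRCh38.p14), 5′ to 3′ on the transcribed strand, and hold 15 bases before the start. Capitals mark the pyrimidine tract from the first transcribed base, or that base alone where there is no tract.
RPS24, chr10:78033848-78033877, plus strand: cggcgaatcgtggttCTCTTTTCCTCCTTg
RPS27, chr1:153990747-153990776, plus strand: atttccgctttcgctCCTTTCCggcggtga
RPL22, chr1:6199581-6199610, minus strand: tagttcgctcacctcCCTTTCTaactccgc
RPL35A, chr3:197950175-197950204, plus strand: cggcggggcctcgtcCTTCTCTTaccgcca
EIF3M, chr11:32583816-32583845, plus strand: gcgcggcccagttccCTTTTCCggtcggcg
EIF3F, chr11:7987322-7987351, plus strand: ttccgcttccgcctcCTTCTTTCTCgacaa
EIF4B, chr12:53006441-53006470, plus strand: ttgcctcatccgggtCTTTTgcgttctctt
EIF1AX, chrX:20141824-20141853, minus strand: gcaaagagtcgcggcGccatttgctgccgc
EIF3J, chr15:44537132-44537161, plus strand: cacctccgccgtgctAactcctcgctagct
MRPL12, chr17:81703352-81703381, plus strand: aggtacggctagagcGtcatttccggctcg
MRPL39, chr21:25607467-25607496, minus strand: gcgacggttctcaccGctgctatggaggcg
MRPS11, chr15:88467693-88467722, plus strand: aaactgactggggtcAattcaagtcatgca

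Promoter windows from 250 bases before to 50 after the start were found for 69 of the 78 members. A C followed by at least 4 pyrimidines stood at the annotated start of 15 of the 18 cytosolic ribosomal protein genes with a window (83.3%), 3 of the 6 EIF3 genes and 1 of the 23 mitochondrial ribosomal protein genes (4.35%), against 5.14% of the 27305 genes of the table. Other motifs were searched on both strands. The E-box CACGTG, the motif that MYC binds, was in 17.4% of the members' windows and in 8.77% of all windows. The ETS motif CCGGAAGT was in 15.9% and 4.95%, and the core of the ATF4 element, TGATGNAA, in 5.8% and 4.46%. The NRF1 motif was in none of the 69 windows and in 1.52% of all. A match describes the letters only, and factor binding was not measured.

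Values are log2 intensities, so that a difference of 1 is a 2-fold change, and levels of different probe sets are not compared. Passing the test means an adjusted p under 0.05 in limma's moderated test. On every array, 57 members were at or above the array median and 35 at or above the 75th percentile. Arrays of a subset correlated at r = 0.987 to 0.994 over the probe sets that were tested and arrays of different subsets at 0.957 to 0.981. Of the markers fixed for other cell types, the 1 erythroid gene measured was below the array median on all arrays, as were 2 of the 4 leukocyte and 2 of the 5 stromal genes, while 1 leukocyte and 3 stromal genes were at or above it on all arrays. The 1 endothelial marker measured, PECAM1, was above it on all arrays and read 7.84 to 8.04 in Oct4low, 8.11 and 8.14 in Oct4med and 7.42 to 7.51 in Oct4hi BCCs, lower in Oct4hi than in Oct4low BCCs by a change of -0.47 (adjusted p = 0.000338). Of the basal breast markers, 3 of the 4 measured were above it on all arrays. The mean level of 4 luminal markers moved with the subsets, from 7.35 to 7.47 in Oct4low, 6.91 to 7.02 in Oct4med and 6.71 to 6.86 in Oct4hi BCCs. The 4 did not all move alike. Against Oct4low BCCs, 3 were lower in Oct4hi and 2 in Oct4med BCCs, where 14.8% and 11.7% of all tested genes were. In Oct4hi over Oct4med BCCs, 3 were lower and 1 higher, where 9.63% and 18.2% of all tested genes were. The part of these markers in the results was not tested. Fewer cells of a kind and less RNA per cell cannot be told apart in such sorted bulk samples.

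In Oct4hi against Oct4low BCCs, several mitochondrial ribosomal protein and initiation factor genes read higher and several cytosolic ribosomal protein genes read lower. Of the 65 members tested, 13 were higher (20%), where 20.4% of the 7639 genes tested were, and 9 were lower (13.8%), where 14.8% of all genes were. The totals are therefore near those of all genes, and the direction differed by role. None of the 15 cytosolic ribosomal protein genes was higher and 5 were lower, with a median change of -0.21 against 0.02 over all genes. None of these 15 was read by a probe set tied to a RefSeq mRNA, and whether they read the mature mRNAs is not known. Of the 20 mitochondrial ribosomal protein genes, 6 were higher and none lower, with a median of 0.08. Of the 17 initiation factors, 6 were higher and 4 lower, with a median of 0.16. Quantile normalizing the arrays again left 2 of the 20 mitochondrial genes and 4 of the 17 initiation factors higher.

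Among the members, the changes past 1 on the log2 scale in Oct4med against Oct4low BCCs were falls of RPS27, RPS24, EIF3B and EIF3M. In all, 3 were higher than in Oct4low BCCs (4.62%, against 5.68% of all genes) and 10 lower (15.4%, against 11.7%), shares near those of all genes, and 6 were lower without Oct4med replicate 1. The falls included 4 of the 5 EIF3 genes tested, which had a median change of -0.70, and 2 cytosolic ribosomal protein genes. The cytosolic ribosomal protein genes as a list had a median of -0.06, against 0.03 over all genes. Between Oct4hi and Oct4med BCCs, 21 members were higher in Oct4hi (32.3%, against 18.2% of all genes) and 5 lower (7.69%, against 9.63%). The 21 became 9 of 65 without Oct4med replicate 1, 13 after a second quantile normalization and 10 by a two-sample test without moderated variances. The medians were 0.01 for the cytosolic and 0.23 for the mitochondrial ribosomal protein genes and 0.34 for the initiation factors, against -0.01 over all genes. The comparisons share arrays, so they are not independent of each other.

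**Figure D1:**
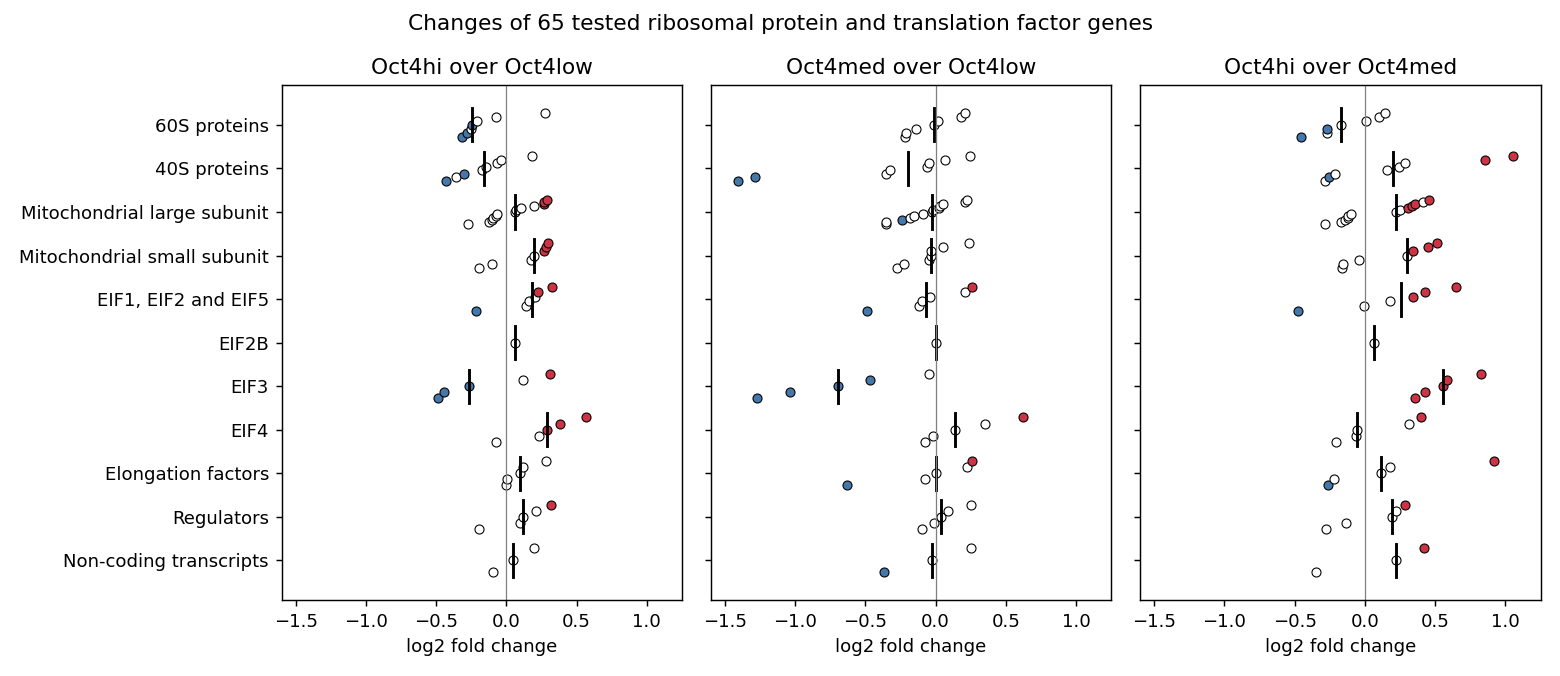
Each point is 1 of the 65 tested genes, placed by its log2 fold change (horizontal axis) in the comparison named above each panel and grouped by role (vertical axis); red points were higher and blue points lower with an adjusted p under 0.05, white points did not pass, and black bars are medians. EIF3 genes lie left of 0 in Oct4med over Oct4low BCCs, with a median of -0.70, and no cytosolic ribosomal protein gene is red in Oct4hi over Oct4low BCCs.

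Of the 65 members, 30 passed the test in at least 1 comparison and 35 in none, and the largest change among those 35 was 0.41 in either direction. By pattern, 10 members were higher in Oct4hi than in both other subsets, and 4 (RPL22, RPL35A, RPS15A and EIF1) were lower in Oct4hi than in both. In 4 members, Oct4med BCCs were lower than both other subsets while Oct4hi BCCs were also lower than Oct4low BCCs. In 6 more, Oct4med BCCs were lower than both others and the difference between those did not pass.

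Among the 60S proteins, 3 of the 7 tested were lower in Oct4hi than in Oct4low BCCs and none passed in Oct4med against Oct4low BCCs. RPL22, a 60S protein that also binds a viral RNA and other structured RNAs, read 11.31, 11.35, 11.43 and 11.35 on the Oct4low arrays, 11.31 and 11.39 on the Oct4med arrays and 11.07, 11.14, 11.06 and 11.05 on the Oct4hi arrays. All Oct4hi arrays were below all others. The change against Oct4low BCCs was -0.28 (SE 0.0648, adjusted p = 0.00573), and that against Oct4med BCCs was -0.27 (adjusted p = 0.0256), lost in 4 of the 10 fits without 1 array. RPL35A, a 60S protein mutated in some families with Diamond-Blackfan anemia, read 7.64 to 7.74 in Oct4low, 7.92 and 7.88 in Oct4med, and 7.37, 7.41, 7.54 and 7.44 in Oct4hi BCCs. The 3 subsets did not overlap, with Oct4hi lowest and Oct4med highest. Its change was -0.24 between Oct4hi and Oct4low BCCs (adjusted p = 0.0141) and -0.46 between Oct4hi and Oct4med BCCs (adjusted p = 0.00209), while the rise of 0.21 in Oct4med BCCs did not pass (adjusted p = 0.0866). A dimmer RPL35A probe set disagreed in Oct4med BCCs, where it was lower by a change of -0.48 (adjusted p = 0.00648).

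RPL36A, another 60S protein, read 5.35, 5.82, 5.47 and 5.58 in Oct4low, 5.39 and 5.44 in Oct4med and 5.30, 5.11, 5.12 and 5.45 in Oct4hi BCCs. The Oct4hi and Oct4low arrays overlapped, and the change of -0.31 passed by little (adjusted p = 0.0409). That call was lost in 6 of the 10 fits that left out 1 array, with an adjusted p of up to 0.123. RPL31 and RPL18 did not pass, with changes of -0.25 and -0.21 between Oct4hi and Oct4low BCCs. RPL37 had the most positive change of the cytosolic genes, 0.27, and did not pass either. The brightest RPL37A probe set changed by -0.07, and a dimmer one was lower in both Oct4hi (-0.50, adjusted p = 0.00374) and Oct4med BCCs (-0.52, adjusted p = 0.0152).

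Among the 40S proteins, RPS15A and RPS24 were lower in Oct4hi than in Oct4low BCCs, and RPS24 and RPS27 fell in Oct4med BCCs. RPS15A read 8.72, 8.74, 8.75 and 8.86 in Oct4low, 8.68 and 8.77 in Oct4med and 8.47, 8.42, 8.46 and 8.52 in Oct4hi BCCs. Every Oct4hi array was below every other array, with a change of -0.30 against Oct4low BCCs (SE 0.0663, adjusted p = 0.00459) and -0.26 against Oct4med BCCs (adjusted p = 0.0363), the latter lost in 6 of the 10 fits without 1 array. A dimmer RPS15A probe set was also lower in Oct4hi BCCs (-0.35, adjusted p = 0.00873) and was lower in Oct4med BCCs (-0.60, adjusted p = 0.00223), where the brightest one changed by -0.04.

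RPS24, a 40S protein needed to process the precursor of 18S rRNA, had 7.70, 7.93, 7.85 and 7.66 in Oct4low, 6.47 and 6.54 in Oct4med, and 7.29, 7.42, 7.09 and 7.63 in Oct4hi BCCs. The subsets did not overlap, and the order was Oct4low, Oct4hi, Oct4med from high to low. The change was -1.29 in Oct4med (SE 0.133, adjusted p = 5.31e-05) and -0.43 in Oct4hi BCCs (SE 0.108, adjusted p = 0.00939), both against Oct4low BCCs. RPS27, a 40S protein also called metallopanstimulin, read 5.46, 6.15, 5.70 and 5.60 in Oct4low, 4.34 and 4.29 in Oct4med and 5.38, 5.17, 5.06 and 5.89 in Oct4hi BCCs. Both Oct4med arrays were below all others and below their array median. The change in Oct4med BCCs was -1.41 against Oct4low (SE 0.216, adjusted p = 0.000764), the largest change of any member, and that between Oct4hi and Oct4low BCCs, -0.36, did not pass (adjusted p = 0.138). RPS6, the 40S protein that S6 kinases phosphorylate, read 5.03 ± 0.04 (SD, n = 4) in Oct4low, 4.97 ± 0.22 (SD, n = 2) in Oct4med and 5.21 ± 0.31 (SD, n = 4) in Oct4hi BCCs and passed in no comparison. Its probe set reached the array median on 1 of the 2 Oct4med arrays, 2 of the 4 Oct4hi arrays and no Oct4low array. RPS15, RPS19, RPS23 and RPS28 did not pass in any comparison either. RPL7, RPLP1, RPLP2, RPS9, RPS14 and RPS29 were among the 13 members that were not tested.

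**Figure D2:**
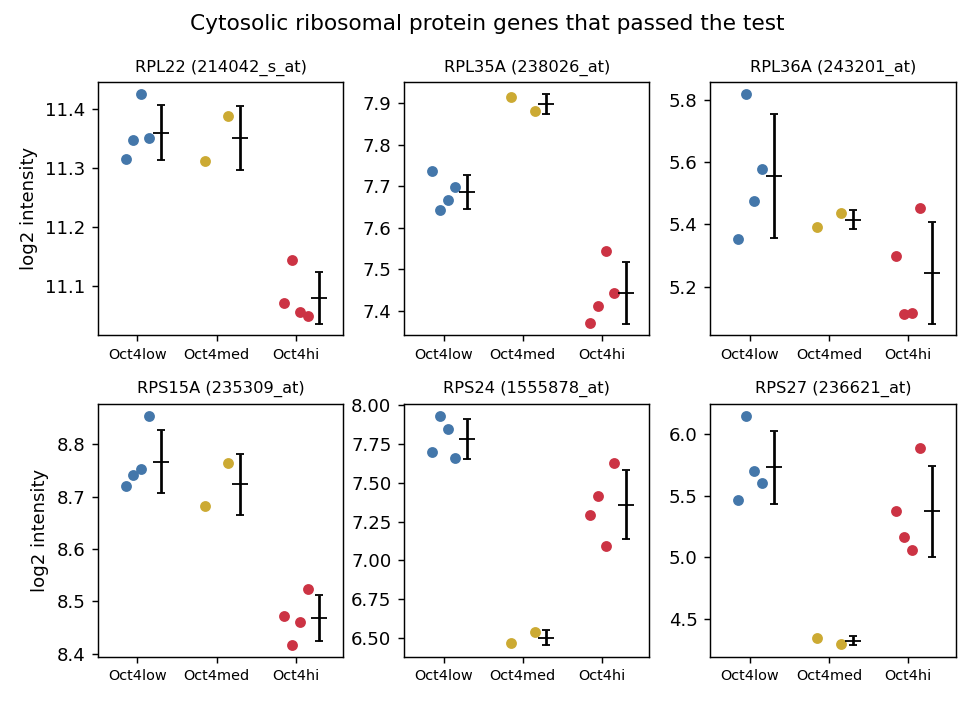
Log2 intensity (vertical axes, each with its own range) of 6 cytosolic ribosomal protein genes on each array of the subsets (horizontal axes); points are arrays and black bars are the mean ± SD of 4 Oct4low, 2 Oct4med or 4 Oct4hi arrays. RPL22 and RPS15A separate Oct4hi from both other subsets, while RPS24 and RPS27 are lowest in Oct4med BCCs, at 6.47 and 6.54 and at 4.34 and 4.29.

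The measured genes are a part of the ribosome. RefSeq lists 78 protein-coding genes under the cytosolic ribosomal names used here, of which 21 had a probe set and 15 were tested, and 77 under the mitochondrial names, of which 24 and 20 were. The authors' filter took out features that changed little, so shares of the measured genes are not shares of the ribosome. None of the 15 cytosolic genes tested was measured by a probe set that the platform annotation ties to a RefSeq mRNA accession, while 8 of all 65 members were. Of the 13 members higher in Oct4hi than in Oct4low BCCs 4 were such probe sets, of the 9 lower ones none, and of the 10 lower in Oct4med BCCs 2. Where these probe sets lie in the transcript is not given in the sources used here, so it is not known whether they read the mature mRNAs.

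EIF3, the large scaffold that binds the 40S subunit and receives the mRNA, had the largest falls among the initiation factors. EIF3B, a core subunit with an RNA recognition motif, read 8.53, 8.79, 8.55 and 8.58 in Oct4low, 7.24 and 7.43 in Oct4med and 8.22, 8.04, 7.94 and 8.48 in Oct4hi BCCs. Its subsets did not overlap, and Oct4med was lowest. The change in Oct4med BCCs was -1.28 (SE 0.14, adjusted p = 7.59e-05) and in Oct4hi BCCs -0.45 (SE 0.114, adjusted p = 0.00963), each against Oct4low BCCs. A second EIF3B probe set changed the same way, by -1.45 in Oct4med (adjusted p = 1.1e-05) and -0.47 in Oct4hi BCCs (adjusted p = 0.00354). The dimmest one changed by 0.16 in both and did not pass.

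EIF3M, a peripheral EIF3 subunit whose gene begins with a TOP tract, read 6.84, 7.08, 6.99 and 6.91 in Oct4low, 5.92 on both Oct4med arrays and 6.43, 6.38, 6.29 and 6.78 in Oct4hi BCCs. Again no subsets overlapped. Its changes were -1.04 in Oct4med (SE 0.126, adjusted p = 0.000154) and -0.49 in Oct4hi BCCs (SE 0.103, adjusted p = 0.00359). Both dimmer EIF3M probe sets were also lower in Oct4med BCCs, by changes of -0.49 and -1.06. EIF3C, another core subunit, read 5.71 to 6.03 in Oct4low, 5.15 and 5.16 in Oct4med and 5.42 to 5.78 in Oct4hi BCCs. Both Oct4med arrays were below all others, with a change of -0.70 (SE 0.118, adjusted p = 0.00155). The Oct4hi and Oct4low arrays of EIF3C overlapped, and their difference of -0.27 passed by little (adjusted p = 0.0473) and was lost in 8 of the 10 fits without 1 array. EIF3C has a near-identical copy in the genome, EIF3CL, so the probe set may read both.

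EIF3F, which also starts with a TOP tract, read 6.19 to 6.55 in Oct4low, 5.72 and 6.16 in Oct4med and 6.33 to 6.72 in Oct4hi BCCs. Both Oct4med arrays were below all others. The change of -0.47 in Oct4med BCCs (adjusted p = 0.0454) was lost in 6 of the 10 fits without 1 array, and without Oct4med replicate 1 it was -0.25 (adjusted p = 0.425). EIF3J, a loosely bound subunit that acts at the mRNA channel, went another way. It read 10.68 to 10.75 in Oct4low, 10.60 and 10.70 in Oct4med and 10.98 to 11.03 in Oct4hi BCCs, and all Oct4hi arrays were above all others. Its change was 0.31 against Oct4low (SE 0.0626, adjusted p = 0.00283) and 0.36 against Oct4med BCCs (adjusted p = 0.00576). After a second quantile normalization the latter was 0.19 and did not pass (adjusted p = 0.0778). All 5 EIF3 genes tested were thus higher in Oct4hi than in Oct4med BCCs, by 0.36 to 0.83, but only 1 of the 5 passed without Oct4med replicate 1, and 1 of the 5 by a two-sample test without moderated variances. EIF3K was not tested. EIF3J-DT, a non-coding transcript that starts beside EIF3J on the other strand, was lower in Oct4med BCCs, with a change of -0.37 (adjusted p = 0.0168), which was -0.25 without Oct4med replicate 1 (adjusted p = 0.175).

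Factors that choose the start codon changed in different directions. EIF5, which makes EIF2 hydrolyse its GTP at the start codon, read 11.79 to 11.84 in Oct4low, 11.31 and 11.34 in Oct4med and 11.92 to 12.06 in Oct4hi BCCs. The 3 subsets did not overlap, with Oct4med lowest and Oct4hi highest. Its change was -0.49 in Oct4med against Oct4low (SE 0.0784, adjusted p = 0.00108) and 0.65 in Oct4hi against Oct4med BCCs (SE 0.0784, adjusted p = 0.000144), and the change of 0.16 in Oct4hi against Oct4low BCCs did not pass (adjusted p = 0.0651). The other 4 EIF5 probe sets were also higher in Oct4hi than in Oct4med BCCs, by 0.54 to 0.74, and 2 of them were higher in Oct4hi than in Oct4low BCCs as well, by 0.33 (adjusted p = 0.00477) and 0.45 (adjusted p = 0.000602).

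EIF1, which keeps the scanning ribosome from stopping at wrong codons, had the opposite order on its brightest probe set. It read 7.25 to 7.42 in Oct4low, 7.60 and 7.61 in Oct4med and 7.07, 7.11, 7.10 and 7.24 in Oct4hi BCCs, again without overlap. The change between Oct4hi and Oct4med BCCs was -0.48 (SE 0.0862, adjusted p = 0.0022). Those against Oct4low BCCs, 0.26 in Oct4med (adjusted p = 0.0492) and -0.21 in Oct4hi BCCs (adjusted p = 0.0324), passed by little. They were lost in 9 and 6 of the 10 fits without 1 array. A dimmer EIF1 probe set gave -0.30 and 0.00 against Oct4low BCCs. Between Oct4hi and Oct4med BCCs it gave 0.31 (adjusted p = 0.0692), the other way, and it passed in no comparison. EIF1AX, the partner of EIF1 on the 40S subunit, read 11.54 to 11.70 in Oct4low, 11.38 and 11.65 in Oct4med and 11.90 to 12.02 in Oct4hi BCCs. All Oct4hi arrays were above all others, with a change of 0.33 against Oct4low BCCs (SE 0.0769, adjusted p = 0.00641). Of the other EIF1AX probe sets, 2 rose as well, by 0.55 and 0.40, and the dimmest changed by -0.10 and did not pass. EIF2S1, the EIF2 subunit that stress kinases phosphorylate, read 10.26 to 10.32 in Oct4low, 10.16 and 10.20 in Oct4med and 10.43 to 10.62 in Oct4hi BCCs. It was higher in Oct4hi than in Oct4low BCCs by 0.23 (adjusted p = 0.0208) and than in Oct4med BCCs by 0.34 (adjusted p = 0.0101), and after a second quantile normalization by 0.11 and 0.19, neither past the threshold. EIF2S3, EIF5B and EIF2B5 passed in no comparison.

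**Figure D3:**
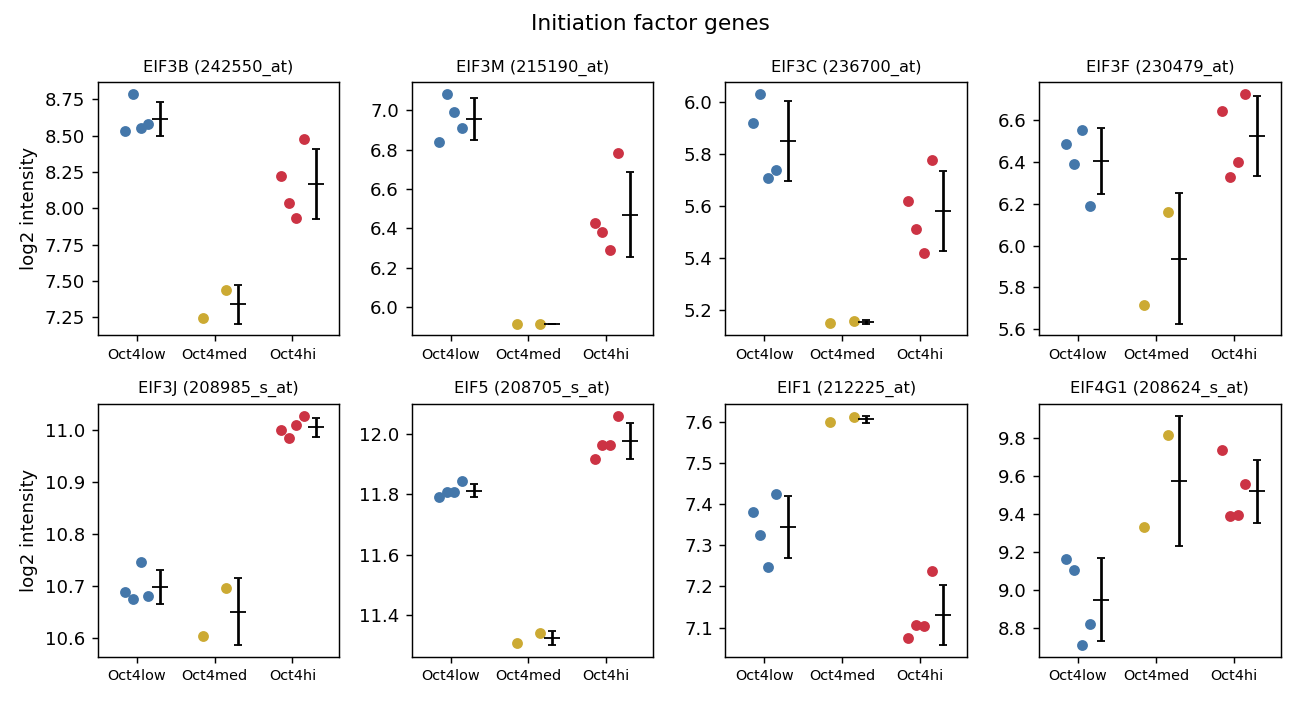
Log2 intensity (vertical axes, each with its own range) of 8 initiation factor genes on each array of the subsets (horizontal axes); points are arrays and black bars are the mean ± SD of 4 Oct4low, 2 Oct4med or 4 Oct4hi arrays. EIF3B, EIF3M, EIF3C and EIF5 are lowest in Oct4med BCCs, EIF1 is highest there, and EIF3J is higher in Oct4hi than in both other subsets, at 10.98 to 11.03.

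Of the 5 factors tested that bind the mRNA cap or act beside it, 3 were higher in Oct4hi than in Oct4low BCCs. EIF4G1, the scaffold that joins the cap-binding protein to EIF3, read 9.16, 9.11, 8.71 and 8.82 in Oct4low, 9.33 and 9.82 in Oct4med and 9.74, 9.39, 9.39 and 9.55 in Oct4hi BCCs. All Oct4low arrays were below all others. The change was 0.57 in Oct4hi (SE 0.132, adjusted p = 0.00585) and 0.63 in Oct4med BCCs (SE 0.162, adjusted p = 0.0178), and without Oct4med replicate 2 the latter was 0.38 (adjusted p = 0.166). EIF4E3, a cap-binding relative of EIF4E, read 6.42 to 6.64 in Oct4low, 6.61 and 6.38 in Oct4med and 6.71 to 7.08 in Oct4hi BCCs. The Oct4hi arrays were above all others, by a change of 0.38 against Oct4low BCCs (SE 0.0983, adjusted p = 0.00992), and a second EIF4E3 probe set rose by 0.62 (adjusted p = 9.66e-05). EIF4B, which helps the helicase EIF4A unwind the mRNA leader, read 9.73 to 10.02 in Oct4low, 10.08 and 10.42 in Oct4med and 10.05 to 10.38 in Oct4hi BCCs. Its change of 0.29 in Oct4hi BCCs passed by little (adjusted p = 0.0454) and was lost in 5 of the 10 fits without 1 array, and that of 0.36 in Oct4med BCCs did not pass (adjusted p = 0.066).

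EIF4E, the cap-binding protein itself, read 8.92 ± 0.28 (SD, n = 4) in Oct4low, 8.85 ± 0.15 (SD, n = 2) in Oct4med and 9.16 ± 0.20 (SD, n = 4) in Oct4hi BCCs and passed in no comparison. Its Oct4hi arrays lay above both Oct4med arrays and overlapped the Oct4low arrays. EIF4E2, another relative of EIF4E, did not pass either. EIF4EBP1, which binds EIF4E and holds it back until mTOR phosphorylates it, read 10.65, 10.66, 10.67 and 10.63 in Oct4low, 10.71 and 10.67 in Oct4med and 10.97, 10.92, 10.97 and 11.04 in Oct4hi BCCs. Every Oct4hi array was above every other array. The change was 0.32 against Oct4low (SE 0.0627, adjusted p = 0.00232) and 0.28 against Oct4med BCCs (adjusted p = 0.0184). After a second quantile normalization the latter was 0.13 and did not pass (adjusted p = 0.27). The other regulators measured did not pass. They were EIF4EBP2, a second inhibitor of EIF4E, EIF2AK1 and EIF2AK4, kinases of EIF2, and EEF1AKMT2, a methyltransferase of EEF1A, with changes from -0.28 to 0.26.

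Of 5 elongation factors, EEF1A2 and EEFSEC changed in Oct4med BCCs and none passed between Oct4hi and Oct4low BCCs. EEF1A2, the form of EEF1A of muscle and nerve that some breast tumors also express, brings aminoacyl-tRNA to the ribosome. It read 7.44, 7.47, 7.68 and 7.53 in Oct4low, 6.65 and 7.14 in Oct4med and 7.85, 7.90, 7.88 and 7.62 in Oct4hi BCCs. Both Oct4med arrays were below all others. The change was -0.63 in Oct4med against Oct4low (SE 0.135, adjusted p = 0.0062) and 0.92 in Oct4hi against Oct4med BCCs (SE 0.135, adjusted p = 0.000563), and without Oct4med replicate 1 the first was -0.39 (adjusted p = 0.0932). EEFSEC, which brings selenocysteine to the ribosome, read 7.65 to 7.76 in Oct4low, 7.999 and 7.936 in Oct4med and 7.67 to 7.77 in Oct4hi BCCs. The Oct4med arrays were above all others, by changes of 0.26 against each (adjusted p = 0.0386 and 0.0295), but these calls were lost in 7 and 4 of the 10 fits without 1 array, with an adjusted p of up to 0.181 and 0.18. EEF1A1, EEF1D and EIF5A2 did not pass, and EEF1A1 read 6.14 ± 0.17 (SD, n = 4), 6.37 ± 0.19 (SD, n = 2) and 6.14 ± 0.11 (SD, n = 4) in Oct4low, Oct4med and Oct4hi BCCs. The EEF1A1 probe set is not tied to a RefSeq mRNA either, and whether it reads the mature mRNA is not known.

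In the mitochondrial ribosome, 6 of 20 genes were higher in Oct4hi than in Oct4low BCCs, and 1 of 10 when _x_at and _s_at probe sets were left out. The 6 were MRPL12, MRPL39 and MRPL52 of the large subunit and MRPS11, MRPS12 and MRPS18B of the small subunit, by 0.27 to 0.30. MRPL12, which also binds the mitochondrial RNA polymerase, read 10.44, 10.39, 10.31 and 10.44 in Oct4low, 10.27 and 10.48 in Oct4med and 10.71, 10.65, 10.65 and 10.74 in Oct4hi BCCs. All Oct4hi arrays were above all others. The change against Oct4low BCCs was 0.29 (SE 0.0724, adjusted p = 0.00867), and after a second quantile normalization it was 0.17 (adjusted p = 0.0699).

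MRPS12, a small-subunit protein of the decoding centre, read 7.59 to 7.65 in Oct4low, 7.50 and 7.63 in Oct4med and 7.85 to 7.95 in Oct4hi BCCs. Its Oct4hi arrays were above all others, by 0.30 against Oct4low BCCs (SE 0.0655, adjusted p = 0.00451), and a dimmer MRPS12 probe set changed by -0.02 and did not pass. MRPS11, another small-subunit protein, read 10, 10.16, 10.15 and 10.15 in Oct4low, 9.91 and 9.87 in Oct4med and 10.33, 10.34, 10.43 and 10.51 in Oct4hi BCCs. The 3 subsets did not overlap. Its changes were 0.29 against Oct4low (SE 0.0717, adjusted p = 0.00892) and 0.51 against Oct4med BCCs (adjusted p = 0.00159), and a dimmer MRPS11 probe set gave 0.30 and 0.52, which also passed. After a second quantile normalization the MRPS11 change against Oct4low BCCs was 0.18 and did not pass (adjusted p = 0.0918). MRPL39 read 10.11 to 10.23 in Oct4low, 9.99 on both Oct4med arrays and 10.39 to 10.49 in Oct4hi BCCs, again without overlap. It was higher in Oct4hi BCCs by 0.27 against Oct4low (adjusted p = 0.00628) and by 0.45 against Oct4med BCCs (adjusted p = 0.00162).

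MRPL49 read 10.73 to 10.78 in Oct4low, 10.54 and 10.48 in Oct4med and 10.82 to 10.88 in Oct4hi BCCs, also without overlap. The change in Oct4med against Oct4low BCCs was -0.24 (adjusted p = 0.0447), but in 9 of the 10 fits without 1 array no mitochondrial gene was called lower. In Oct4hi against Oct4med BCCs the MRPL49 change was 0.34 (adjusted p = 0.00701). MRPS25 passed only between Oct4hi and Oct4med BCCs, by 0.45 (adjusted p = 0.00586). MRPL19, MRPL30, MRPL41 and MRPS5 did not pass, with changes of -0.35, -0.35, -0.15 and 0.24 in Oct4med and 0.06, -0.10, -0.28 and 0.20 in Oct4hi against Oct4low BCCs. A dimmer MRPS5 probe set went against the 0.24 and was lower in Oct4med BCCs (-0.38, adjusted p = 0.0345). The remaining 8 tested mitochondrial genes did not pass in any comparison, and MRPL20, MRPS15, MRPS18C and MRPS27 were not tested. Of the 3 non-coding transcripts, EIF1B-AS1 and RPL26L1-AS1 did not pass, with changes of 0.25 and -0.02 in Oct4med and -0.10 and 0.20 in Oct4hi against Oct4low BCCs.

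**Figure D4:**
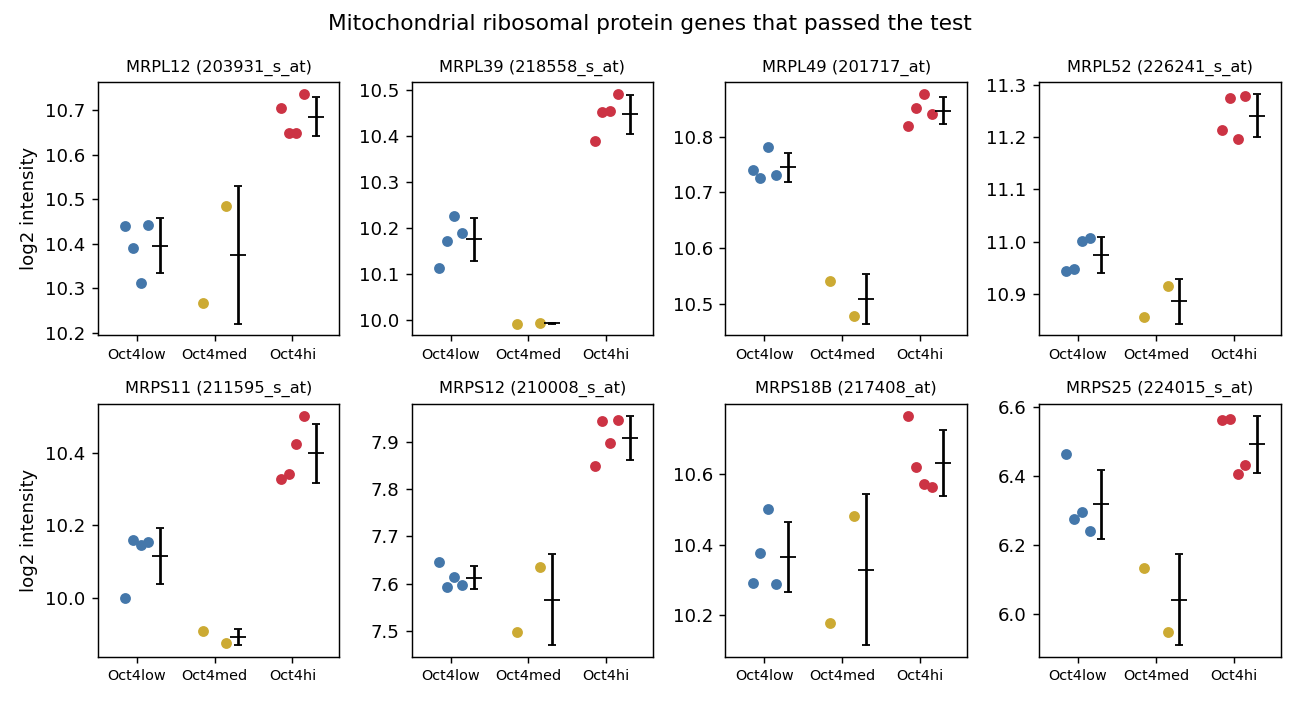
Log2 intensity (vertical axes, each with its own range) of the 8 mitochondrial ribosomal protein genes that passed in at least 1 comparison, on each array of the subsets (horizontal axes); points are arrays and black bars are the mean ± SD of 4 Oct4low, 2 Oct4med or 4 Oct4hi arrays. In MRPL12, MRPL39, MRPL52, MRPS11 and MRPS12 the Oct4hi arrays lie above all others, and the pair of Oct4med arrays of MRPL12 (10.27 and 10.48) is spread more widely than the Oct4hi arrays.

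On single arrays, the cytosolic ribosomal protein genes had a median difference from the Oct4low mean of -0.25, -0.22, -0.20 and -0.08 on the Oct4hi arrays, -0.16 and -0.002 on the Oct4med arrays and -0.05 to 0.01 on the Oct4low arrays. The mitochondrial genes had 0.08, 0.13, 0.10 and 0.12 on the Oct4hi arrays, -0.12 and -0.05 on the Oct4med arrays and -0.01 to 0.04 on the Oct4low arrays. The Oct4hi arrays thus lay below the Oct4low arrays for the first group and above them for the second, in all 4 cases. These values rest on the genes that passed the filter. Of the 10 members lower in Oct4med than in Oct4low BCCs, Oct4hi replicate 4 was the highest of the Oct4hi arrays in 8, and without it 11 members were lower.

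The array holds control probe sets for ribosomal RNA. Whether their readings follow its amount or the quality and labelling of the RNA was not tested. The probe set at the 5′ end of 28S rRNA had 13.60 ± 0.07 (SD, n = 4) in Oct4low, 12.70 ± 0.09 (SD, n = 2) in Oct4med and 13.57 ± 0.03 (SD, n = 4) in Oct4hi BCCs, and that at its middle had 11.98, 11.50 and 11.87. Both read lower on the Oct4med arrays, while the much dimmer one at the 3′ end had 5.30, 5.27 and 5.21. The probe set for the middle of 18S rRNA had 12.84, 12.98 and 13.14. The part of these differences in the Oct4med falls of RPS24, RPS27, EIF3B and EIF3M was not tested, and the control probe sets were left out of the tests.

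Of the members called, other probe sets passing the filter were mostly in the same direction. For Oct4hi against Oct4low BCCs, 15 such probe sets existed, of which 11 had the same sign and 7 passed the same way. In Oct4med against Oct4low BCCs these counts were 9, 7 and 6, and in Oct4hi against Oct4med BCCs 19, 15 and 12. None of them passed in the opposite direction to its gene's brightest probe set in that comparison.

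TOP starts stood at 22 of the 69 members with a promoter window (31.9%) and were unevenly spread over the called members. Of the 9 members lower in Oct4hi than in Oct4low BCCs, 8 had a promoter window and 5 of these a TOP start, and of the 13 higher ones 12 had a window and 1 a TOP start. These lists follow the roles, since most cytosolic ribosomal protein genes have such a start and most mitochondrial ones do not, and no test was made. EIF4B, shown above with a short tract, was the riser with a TOP start.

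Other genes of protein synthesis, from lists written for their roles, were measured on the same arrays. Their counts stand against the shares of all genes given above, which were 20.4% higher and 14.8% lower in Oct4hi over Oct4low, 5.68% and 11.7% in Oct4med over Oct4low, and 18.2% and 9.63% in Oct4hi over Oct4med BCCs. Among 19 ribosome assembly genes, 5 rose and 4 fell in Oct4hi against Oct4low BCCs. Between Oct4hi and Oct4med BCCs, Oct4hi had 12 higher and 2 lower, with a median of 0.30. Counts of these related lists are given for the main fit only, without checks that leave out single arrays. NOLC1, a nucleolar phosphoprotein, rose by 0.61 in Oct4hi (adjusted p = 0.00269) and by 0.52 in Oct4med BCCs (adjusted p = 0.03). LTV1, which helps to export the young 40S subunit, fell by 1.15 in Oct4med (adjusted p = 0.000526) and by 0.40 in Oct4hi BCCs (adjusted p = 0.0407). NOC2L fell by 0.72 in Oct4med BCCs (adjusted p = 0.0014). NOP2, a methyltransferase of 28S rRNA, was higher in Oct4hi than in Oct4med BCCs by 0.50 (adjusted p = 0.00338).

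Of 21 genes of RNA polymerases I and III, which make ribosomal RNA and tRNA, 7 were higher and none lower in Oct4hi than in Oct4low BCCs, with a median of 0.04. BDP1, a subunit of the polymerase III factor TFIIIB, rose by 0.79 (adjusted p = 0.0257), and POLR3G, a polymerase III subunit, by 0.44 (adjusted p = 0.0179). POLR1E rose in Oct4med BCCs by 0.31 (adjusted p = 0.0179), while TAF1D, a subunit of the polymerase I selectivity factor, fell there by 0.73 (adjusted p = 0.000656). RRN3, which recruits polymerase I, was higher in Oct4hi than in Oct4med BCCs by 0.32 (adjusted p = 0.0336).

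Of the 10 cytoplasmic genes for aminoacyl-tRNA synthetases and their partners, 6 were higher and 2 lower in Oct4hi than in Oct4low BCCs, with a median of 0.30. LARS1, the leucyl-tRNA synthetase, read 8.06, 7.95, 7.46 and 7.31 in Oct4low, 8.25 and 8.80 in Oct4med and 9.05, 8.43, 8.18 and 8.59 in Oct4hi BCCs. The Oct4low arrays were below all others, and the rise was 0.87 in Oct4hi (adjusted p = 0.00685) and 0.83 in Oct4med BCCs (adjusted p = 0.0374). YARS1, the tyrosyl-tRNA synthetase, fell by 0.51 in Oct4hi (adjusted p = 0.000501) and by 0.59 in Oct4med BCCs (adjusted p = 0.00115). TARS3 and SARS1 were higher in Oct4hi than in Oct4med BCCs by 0.54 (adjusted p = 0.00662) and 0.36 (adjusted p = 0.0119).

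Of 13 further genes of mitochondrial translation, 3 were higher and 1 lower in Oct4hi BCCs and none higher and 3 lower in Oct4med BCCs, each against Oct4low BCCs. SARS2, the mitochondrial seryl-tRNA synthetase, rose by 0.34 in Oct4hi BCCs (adjusted p = 0.00591). LRPPRC, which stabilizes mitochondrial mRNAs, fell by 0.82 in Oct4med (adjusted p = 0.00753) and by 0.51 in Oct4hi BCCs (adjusted p = 0.0176). PTCD3, a small-subunit protein of the mitochondrial ribosome, fell by 0.48 in Oct4med BCCs (adjusted p = 0.00685). MTFMT, which formylates the initiator tRNA of mitochondria, was higher in Oct4hi than in Oct4med BCCs by 0.39 (adjusted p = 0.013).

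Of 5 genes from a list of ribosomal and TOP genes with other names, 4 fell and none rose in Oct4med against Oct4low BCCs. NACA, which shields the chain as it leaves the ribosome, read 7.90, 8.24, 8.12 and 8.05 in Oct4low, 6.81 and 6.90 in Oct4med and 7.43, 7.41, 7.35 and 7.70 in Oct4hi BCCs, without overlap. It fell by 1.22 in Oct4med (adjusted p = 3.21e-05) and by 0.61 in Oct4hi BCCs (adjusted p = 0.000613). HNRNPA1 fell by 0.58 in Oct4med BCCs (adjusted p = 0.000397), and EPB41L4A-AS1, a non-coding host of a small nucleolar RNA, fell by 0.33 in Oct4hi BCCs (adjusted p = 0.00388).

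Among 14 genes of poly(A) binding, termination and quality control, 1 rose and 3 fell in Oct4med and 4 rose and 3 fell in Oct4hi BCCs, each against Oct4low BCCs. GSPT1, the release factor eRF3a, read 7.32, 7.56, 7.48 and 7.16 in Oct4low, 5.65 and 5.87 in Oct4med and 6.72, 6.60, 6.62 and 7.14 in Oct4hi BCCs. The subsets did not overlap, and GSPT1 fell by 1.62 in Oct4med (adjusted p = 3.29e-05) and by 0.61 in Oct4hi BCCs (adjusted p = 0.00331). CPEB2, which binds cytoplasmic polyadenylation elements, fell by 0.91 in Oct4med (adjusted p = 0.000796) and by 0.90 in Oct4hi BCCs (adjusted p = 0.000147). LTN1, a ligase that marks chains on stalled ribosomes, rose by 0.82 in Oct4hi BCCs (adjusted p = 0.0161), and LARP4 was higher in Oct4hi than in Oct4med BCCs by 0.45 (adjusted p = 0.0152).

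Of 17 regulators of translation in the MYC, mTOR and stress pathways, 2 rose and 5 fell in Oct4hi BCCs and 5 fell in Oct4med BCCs, each against Oct4low BCCs. DDIT3, a transcription factor of the stress response also called CHOP, read 9.41, 9.53, 9.61 and 9.54 in Oct4low, 7.82 and 8.01 in Oct4med and 9.05, 9.12, 9.08 and 9.32 in Oct4hi BCCs. It fell by 1.61 in Oct4med (adjusted p = 1.2e-06) and by 0.38 in Oct4hi BCCs (adjusted p = 0.00455). PPP1R15A, which brings a phosphatase to phosphorylated EIF2S1, fell by 0.73 in Oct4med BCCs (adjusted p = 4.85e-05). RRAGD, a GTPase that recruits mTOR to lysosomes, rose by 0.51 in Oct4hi BCCs (adjusted p = 0.000222), and MXI1, an antagonist of MYC, fell by 0.50 there (adjusted p = 0.000115).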

How the data were processed

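Total RNA of 10 sorted samples (100 ng each) was hybridized to Affymetrix U133 Plus 2.0 arrays. The authors corrected the background, log2-transformed and RMA normalized the values in BRB-Array Tools and left out features near background or with little change, which left deposited log2 intensities of 25750 probe sets (2.37 to 14.46). No per-array scanner files were used. A linear model with 3 subset means was fitted with limma 3.58.1 in R 4.3.3 to the 13872 probe sets that reached the array median on at least 2 of 10 arrays, without 23 control probe sets. Tests were two-sided, with Benjamini-Hochberg adjustment across all of these. The script was tested on simulated data. Beside the 78 members, 7 pseudogenes and 8 RPS6K genes were left out, and 15 probe sets with several symbols were not used. The members, roles, related lists and markers were chosen with earlier results of these data known. Named were up to 8 rises and 8 falls per comparison that passed without overlap, the 2 largest changes of each role, landmark members and the 2 largest called changes of each related list. MRPL49, MRPL52, MRPS18B, MRPL39 and further members were named because they passed or to account for a role. Alternatives were other scalings, filters, tests, probe sets per gene, the replicate block and leaving out each array. The number of arrays limits the precision, with 2 Oct4med arrays most. Some genes of the series are not reported here.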

Additional observations from a re-analysis of the deposited data

Results flagged for a closer look

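In 3 of the 84 groups of 4 arrays examined, 1 array lay far from the other 3 by Dixon's test, of which chance flags about 1 group in 20. For EEF1A2, Oct4hi replicate 4 (7.62) was below the others (7.85 to 7.90), with a gap that took 0.84 of the range. For EIF4E, Oct4hi replicate 2 (9.45) was above the others (9.03 to 9.07), with 0.911 of the range. For MRPS11, Oct4low replicate 1 (10) was below the others (10.15 to 10.16), with 0.919 of the range.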

How the results depend on the processing

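Counts are given as members higher and lower. Normalizing by quantiles again gave 7 and 8 in Oct4hi over Oct4low (13 and 9 as reported), 7 and 9 in Oct4med over Oct4low (3 and 10) and 13 and 7 in Oct4hi over Oct4med BCCs (21 and 5). A common array median gave 14 and 6, 1 and 8, and 21 and 2. Both scalings moved the median of all tested probe sets by less than 0.1, but single members moved further. After the second quantile normalization, MRPL12 went from 0.29 to 0.17 in Oct4hi over Oct4low BCCs. EIF4EBP1 went from 0.28 to 0.13 in Oct4hi over Oct4med BCCs, while EIF3C went only from -0.27 to -0.24 in Oct4hi over Oct4low BCCs. Of 54 calls of members named by the rule, 42 held under it and 12 were lost. In Oct4hi over Oct4low BCCs, 6 were higher without _x_at and _s_at probe sets, and 5 were lower by the methods' t-test without a variance model. In Oct4med over Oct4low BCCs, 6 were higher with the stricter filter (75th percentile), 0 with array weights, and 1 in a fit of these subsets alone or without _x_at and _s_at probe sets. In Oct4hi over Oct4med BCCs, 10 were higher by that t-test, and 2 were lower without a filter, with array weights, when only these arrays were fitted, and with the mean or the least bright of a gene's probe sets. The median change of cytosolic ribosomal protein genes in Oct4med over Oct4low BCCs was -0.14 with the mean of a gene's probe sets, and likewise without _x_at and _s_at probe sets. It was -0.22 with the least bright. In Oct4hi over Oct4med BCCs it was -0.23 with the stricter filter and 0.10 with the least bright probe set. The causes were not tested.

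The replicate numbers did not mark pairs of samples. In the 8 same-numbered pairs, deviations correlated at -0.26 to 0.28, over 0.1 in 2 pairs. In the 24 pairs with different numbers they correlated at -0.51 to 0.51, over 0.1 in 7 pairs. Of the 10 arrays, 2 correlated best with their own number. The paper isolated RNA in several experiments, which the labels do not tie to arrays. Some arrays with different numbers did correlate, such as Oct4low replicate 2 with Oct4hi replicate 4 (0.41). Oct4low replicate 4 (0.31) and Oct4med replicate 1 (0.51) each correlated with Oct4hi replicate 3, and Oct4low replicate 3 with Oct4hi replicate 2 (0.24). Pairing under other numbers was not tested, and the main fit took all arrays as unpaired. With the replicate number as a block, which cannot remove such a pairing, the counts were 11 and 6, 0 and 7, and 18 and 2.

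With the least bright probe set, the changes turned to 0.001, -0.30 and 0.31 for EIF1 (in the order of comparisons above), -0.10 for EIF1AX, 0.16 in both comparisons with Oct4low BCCs for EIF3B, -0.015 in Oct4hi over Oct4low and -0.10 in Oct4hi over Oct4med BCCs for MRPS12, and 0.27 for RPL35A and 0.25 for RPS15A in Oct4hi over Oct4med BCCs. With the mean of probe sets, EIF1 changed by -0.021 in Oct4med over Oct4low BCCs. None of these values passed the threshold.

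Leaving out 1 array gave 10 to 15 higher and 6 to 10 lower in Oct4hi over Oct4low, 0 to 3 and 6 to 11 in Oct4med over Oct4low, and 9 to 23 and 2 to 6 in Oct4hi over Oct4med BCCs. The medians of the cytosolic ribosomal protein genes were -0.25 to -0.16, -0.16 to -0.002 and -0.14 to 0.052. Of 54 calls of members named by the rule, 29 held in all fits without 1 array and 25 were lost in at least 1. Without Oct4med replicate 1, 9 in place of 21 members were higher and 2 lower in Oct4hi over Oct4med, and 6 in place of 10 lower in Oct4med over Oct4low BCCs. Without Oct4hi replicate 1 or 2, 2 or 3 were lower in Oct4hi over Oct4med BCCs. The 3 members higher in Oct4med over Oct4low BCCs were 1 without Oct4low replicate 2, 3 or 4 or Oct4hi replicate 1 or 2, and 0 without Oct4med replicate 2.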
